A study of Mus musculus with 17 samples.

Results

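The libraries compared here are 12 untreated frontal cortex dissections that fall on either side of a gap in olfactory bulb RNA, 5 with high and 7 with low levels of olfactory bulb marker genes. They are 12 of the 17 deposited files, which hold 16 distinct libraries, because the files of dTg 1 and NTg 1 contain the same values. The libraries were selected on the measured levels of Eomes, Tbx21, Doc2g, Th and Meis2 in these same libraries, and no label records how much bulb a dissection held. The bulb-rich libraries were Ct 1, Ct 2, Ct 5, dTg 3 and dTg 6. The bulb-poor libraries were Ct 3, Ct 4, Ct 6, dTg 2, dTg 4, dTg 5 and dTg 7. Because the split came from expression values, every bulb-rich minus bulb-poor difference is given as a description with no test.

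All 12 came from male FVB/N mice without doxycycline. Ct mice (n = 6) carried the CamK driver transgene alone, and dTg mice (n = 6 here) carried it together with an inducible miR-211 transgene, so the driver, which acts in forebrain excitatory neurons, was shared by both groups. The labels give neither age nor transgene copy, nor whether replicates came from separate animals, so p-values measure only the spread between these samples. The headers name dTg 5, dTg 6 and dTg 7 with 1 shared number whose meaning is not stated, and these 3 libraries fall on both sides of the split. The remaining files, namely the shared dTg 1 and NTg 1 library and the 3 dTgDox libraries (the dTg genotype after 4 days of doxycycline), were left out of the comparison.

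The olfactory bulb lies directly in front of the frontal cortex. Axons of olfactory sensory neurons end in its glomeruli, where they contact mitral and tufted cells, the excitatory neurons that send odour information to the cortex. Inhibitory periglomerular cells, some of them dopaminergic, surround the glomeruli, and granule cells, which are renewed throughout life by neuroblasts arriving along the rostral migratory stream, fill the core. Eomes (Tbr2) and Tbx21 (Tbet) are T-box transcription factors of mitral and tufted cells, Doc2g is a C2-domain protein and Cdhr1 a protocadherin of the same cells, Th is the rate-limiting enzyme of dopamine synthesis, and Meis2 is a homeobox factor of granule and periglomerular cells that is also made in striatal neurons. In such bulk RNA, fewer cells of a type and less RNA per cell cannot be told apart.

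The promoters of 3 genes that separate the groups are shown because Eomes and Tbx21 bind T-box elements and because the Th promoter is known for its cyclic AMP response element (CRE). Sequences are from RefSeq (GRCm38.p6) and run 5′ to 3′ on the gene's strand, from 250 bases before to 50 bases after the transcript start. Capitals mark a match to the T-box core GGTGTG, or its reverse complement CACACC, in the Doc2g (chr19:4003135-4003434, plus strand) and Cdhr1 (chr14:37098298-37098597, minus strand) promoters, and to the palindromic CRE TGACGTCA in the Th promoter (chr7:142899946-142900245, minus strand).
Doc2g: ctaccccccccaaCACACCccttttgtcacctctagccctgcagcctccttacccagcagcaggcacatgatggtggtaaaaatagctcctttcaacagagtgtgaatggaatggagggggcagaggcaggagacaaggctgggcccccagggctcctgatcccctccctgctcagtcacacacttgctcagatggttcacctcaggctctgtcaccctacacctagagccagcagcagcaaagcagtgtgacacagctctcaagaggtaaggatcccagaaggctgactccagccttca
Cdhr1: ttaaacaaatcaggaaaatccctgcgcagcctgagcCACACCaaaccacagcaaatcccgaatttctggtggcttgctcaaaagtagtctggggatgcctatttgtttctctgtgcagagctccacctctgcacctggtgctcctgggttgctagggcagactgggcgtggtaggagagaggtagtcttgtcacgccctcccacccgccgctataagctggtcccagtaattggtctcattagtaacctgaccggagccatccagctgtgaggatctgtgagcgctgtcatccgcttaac
Th: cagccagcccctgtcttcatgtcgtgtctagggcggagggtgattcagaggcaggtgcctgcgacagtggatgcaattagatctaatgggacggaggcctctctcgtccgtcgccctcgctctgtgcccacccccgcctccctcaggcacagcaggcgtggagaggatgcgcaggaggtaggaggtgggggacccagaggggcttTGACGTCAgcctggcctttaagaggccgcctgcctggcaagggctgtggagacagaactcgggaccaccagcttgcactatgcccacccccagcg
Searched on both strands, the T-box core was present in 9 of the 30 genes with a RefSeq promoter among the 45 higher genes described below (30%), namely Aqp1, Cacng5, Cdhr1, Doc2g, Frmd7, Gng4, Gpsm1, Meis1 and Sp8. It was present in 19% of all 32851 promoters and in at least 1 promoter of 21.4% of 27025 genes. The CRE was present in 1 of the 30 genes (3.33%, Th), in 1.79% of all promoters and in at least 1 promoter of 2.03% of the 27025 genes. These matches are letters in a window and were not measured as binding sites.

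Levels below are FPKM (reads per transcript length and sequencing depth), given as each bulb-rich library in the order Ct 1, Ct 2, Ct 5, dTg 3 and dTg 6, and as the lowest, median and highest of the 7 bulb-poor libraries. Differences are bulb-rich minus bulb-poor on the log2(FPKM + 0.5) scale, adjusted for Ct or dTg group, with the fitted standard error (SE). The added 0.5 understates the difference of genes that are near 0 in the bulb-poor libraries.

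The markers that chose the split showed how it was made. Eomes was 14.7, 3.97, 6.79, 7.55 and 0.769 FPKM in the bulb-rich libraries and 0.0216, 0.0935 and 0.173 in the bulb-poor libraries, a difference of 3.15 (SE 0.47). Tbx21 was 5.30, 1.85, 1.83, 2.06 and 0.227 FPKM against 0.0217, 0.0426 and 0.0911. Both T-box factors were near 0 in all 7 bulb-poor libraries, and dTg 6 was the lowest bulb-rich library for each of them. Doc2g was 91.7, 28.3, 43.9, 47.0 and 9.25 FPKM against 1.64, 2.52 and 3.21, a difference of 3.56 (SE 0.43). Th was 41.5, 8.47, 24.5, 25.6 and 6.14 FPKM against 0.907, 1.64 and 2.25, a difference of 2.98 (SE 0.42). For these 4 genes the groups did not overlap and Ct 1 was the highest library.

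Meis2 did not separate the libraries. It was 161, 80.6, 117, 145 and 88.1 FPKM against 31.7, 63.2 and 87.6, and the bulb-poor library Ct 4 lay above the bulb-rich library Ct 2. Its difference was 0.86 (SE 0.25). Ct 4 was also among the 4 libraries with the highest level of striatal genes described below, and the part of that signal in the Meis2 level was not tested. Of the 5 genes that chose the libraries, Meis2 was thus the only one whose groups overlapped.

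**Figure D1:**
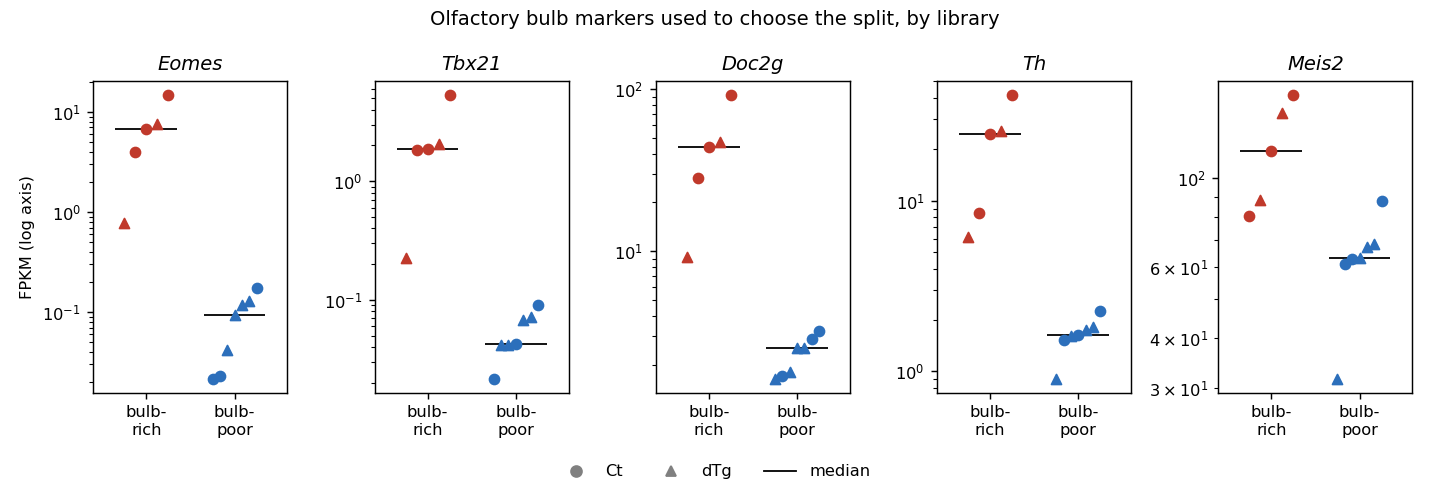
FPKM of the 5 marker genes on log axes in the 5 bulb-rich (red) and 7 bulb-poor (blue) libraries, with circles for Ct, triangles for dTg and a line at each group's median. Eomes, Tbx21, Doc2g and Th have a gap between the groups, whereas for Meis2 the bulb-poor library at 87.6 lies above the bulb-rich library at 80.6.

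Across the 18726 genes tested, 45 (0.240%) were at least 2-fold higher in the bulb-rich libraries with every bulb-rich library above every bulb-poor library, and 1 (0.00534%) was at least 2-fold lower without overlap. The same measurements chose the libraries, so nothing is read from these counts. Without the fold requirement, 147 genes (0.785%) were higher and 78 (0.417%) lower without overlap. The median difference over all genes was -0.02, with 44.9% of genes above 0. At the edge of the 2-fold rule, Dnah11 (1.0) and Fgf16 (1.01) were just inside, and Pcbp3 and Tshz1 (both 0.99) just outside. Of the 45 genes, 42 were protein-coding, 17 were in the cell type and pathway lists used here and 28 were in none.

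Mitral and tufted cell genes included 3 of the markers that chose the libraries. Of 12 list members tested, 6 were called higher, namely the markers Eomes, Tbx21 and Doc2g and, besides them, Cdhr1, Shisa3 and Nmb, 10 had a positive difference, and the list median was 1.93. Cdhr1 was 43.2, 12.0, 22.2, 23.9 and 4.23 FPKM against 0.409, 1.14 and 2.67, a difference of 3.29 (SE 0.50). Nmb, which encodes the peptide neuromedin B, was 31.7, 9.15, 15, 18.7 and 3.65 FPKM against 2.13, 2.53 and 3.12. The lowest bulb-rich library thus exceeded the highest bulb-poor library by little for Nmb, whereas Ct 1 was far above it. Shisa3, a membrane adaptor, was 10.3, 3.26, 4.72, 5.13 and 0.811 FPKM against 0.116, 0.326 and 0.528. The Nmb receptor gene Nmbr, which was in no list, was also higher, at 4.92, 5.55, 6.77, 4.05 and 4.15 FPKM against 0.599, 0.974 and 3.43.

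The other members of the mitral and tufted list did not separate the libraries. Reln, the secreted glycoprotein reelin, had a difference of 0.65 (SE 0.16), Slc17a6, the vesicular glutamate transporter VGLUT2, 0.63 (SE 0.30), and the netrin relative Ntng1 0.54 (SE 0.16). Each of these genes is also expressed outside the bulb. Cck, a neuropeptide gene abundant in cortex, had a difference of -0.06 (SE 0.15) and Ebf1 of -0.02 (SE 0.30). Lhx1, Lhx5, Uncx, Barhl2 and Ebf3 were below the level filter.

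Periglomerular genes followed the same libraries. Of 17 tested, 4 were called higher (Th, Trh, Scgn and Calb2), 14 were positive and the median was 0.58. Trh, the thyrotropin-releasing hormone precursor, was 23.8, 6.42, 12.5, 14.9 and 2.69 FPKM against 0.425, 0.665 and 1.63, a difference of 2.92 (SE 0.41). Calb2, the calcium buffer calretinin that marks the most numerous periglomerular type, was 102, 40.2, 72.4, 62.0 and 17.2 FPKM against 4.77, 8.68 and 11.8, a difference of 2.49 (SE 0.40). Scgn, the calcium sensor secretagogin, was 11, 3.61, 5.66, 6.37 and 1.39 FPKM against 0, 0.196 and 0.982. All 3 genes placed the bulb-rich libraries in nearly the order seen for Doc2g, with Ct 1 highest and dTg 6 lowest.

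Most other dopamine genes had differences near 0. Of 15 dopamine genes tested, Th was the only one called higher, and the list median was 0.04. Slc6a3, the dopamine transporter, was low but did not overlap, at 0.886, 0.263, 0.693, 0.527 and 0.103 FPKM against 0, 0.0339 and 0.0829, a difference of 0.78 (SE 0.19). Ddc, which converts L-DOPA to dopamine, had a difference of 0.04 (SE 0.21), Gch1, which makes the cofactor of Th, 0.11 (SE 0.12), and the vesicular transporter Slc18a2 0.21 (SE 0.13). Drd1, a dopamine receptor of striatal neurons, had a difference of -0.56 (SE 0.70), which combined -1.89 within Ct with 0.93 within dTg. The dopamine list median was -0.05 within Ct and 0.27 within dTg.

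Granule cell genes were mostly higher in the bulb-rich libraries, with overlap for most of them. Of 18 tested, 3 were called higher (Sp8, Cacng5 and Dlx1), 5 did not overlap, 17 were positive and the median was 0.71. Sp8, a zinc finger factor of bulb interneurons, was 11.7, 2.90, 5.91, 6.82 and 2.09 FPKM against 0.352, 0.755 and 1.20, a difference of 2.18 (SE 0.35). Dlx1, a homeobox factor of forebrain inhibitory neurons, was 79.0, 27.9, 48.6, 49.7 and 27.7 FPKM against 13.5, 18.1 and 22.7, a difference of 1.23 (SE 0.25). Its bulb-poor level is not near 0, as that of Eomes is. Tshz1 and Tpbg did not overlap but were below 2-fold. Pbx3 had a difference of 1.49 (SE 0.38) with overlap, the bulb-poor libraries Ct 4 and Ct 6 (8.38 and 7.93 FPKM) lying above Ct 2 (7.39). The mean log2 level of the granule list was 4.20 in Ct 4, above 4.17 in dTg 6 and 4.09 in Ct 2. Ct 4 and Ct 6 also had the highest levels of striatal genes described below, and the part of that signal in the granule list was not tested. In the list of 22 GABA genes none was called and the median was -0.03, although Gad1, which makes GABA, was 398 FPKM in Ct 1 and 152, 172 and 219 in the bulb-poor libraries. Its difference was 0.50 (SE 0.15), and the groups overlapped.

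Neuroblast and cell cycle genes gave no gene that separated the libraries. Of 16 neuroblast genes, 14 were positive with a median of 0.29, led by Igfbpl1 at 1.42 (SE 0.34) and Sp9 at 1.13 (SE 0.30), both with overlap. Of 10 cell cycle genes tested, 8 were positive with a median of 0.09, and Mki67, Cenpf, Aurkb and Bub1 were below the level filter. Top2a, a marker of dividing cells, ranged from 0.200 to 0.958 FPKM in the bulb-rich and from 0.167 to 1.01 in the bulb-poor libraries.

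Genes of olfactory sensory neurons, whose axon terminals carry some RNA into the bulb, had the largest difference and a pattern of their own among the libraries. S100a5, a calcium-binding protein of these neurons, was 101, 6.69, 66.9, 81.2 and 4.39 FPKM, and it was listed at 0 in 5 of the 7 bulb-poor libraries, with 0.354 the highest. Omp, the olfactory marker protein, was 13.7, 0.437, 7.01, 9.68 and 0.554 FPKM against 0.164, 0.202 and 0.347. Both genes were high in Ct 1, dTg 3 and Ct 5 and low in Ct 2 and dTg 6. Stoml3, a channel modulator of sensory neurons chosen here after its values were seen, was 3.88, 0.0891, 1.96, 2.48 and 0.172 FPKM, and its highest bulb-poor value, 0.105, lay above Ct 2. The other 5 of 8 sensory genes tested, Gng13, Gnal, Adcy3, Cnga4 and Ano2, which take part in odour signalling and some of which are also made in the forebrain, had differences between -0.20 and 0.14. The list median was 0.03 with 4 of 8 positive.

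Fabp7, a fatty acid binding protein of ensheathing and radial glia, was the only ensheathing glia gene called of 12, at 134, 42.6, 102, 97.1 and 53.8 FPKM against 16.4, 21.1 and 23.6. Its difference was 1.92 (SE 0.27), and Ct 2 rather than dTg 6 was its lowest bulb-rich library. Of the 12 genes, 11 were positive with a median of 0.32, and the mean log2 level of the list was 3.84 to 4.33 in the bulb-rich and 3.32 to 3.83 in the bulb-poor libraries. Prss56, Apod and Matn4 had differences of 0.79 (SE 0.16), 0.53 (SE 0.22) and 0.44 (SE 0.16), each with overlap, and Npy of -0.06 (SE 0.10). General astrocyte genes (14 tested, median 0.01), oligodendrocyte genes (17, 0.04), microglia genes (12, -0.02), endothelial and mural genes (14, 0.08) and meningeal fibroblast genes (12, 0.08) had no gene called.

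Among the called genes outside the lists were several that kept to the same libraries. Ms4a15, a membrane-spanning 4-domain family member, was 26.5, 9.66, 16.4, 14.2 and 2.31 FPKM, with 0.258 the highest bulb-poor value, and had the second largest difference, 4.22 (SE 0.42). Frmd7, a FERM domain protein, was 15.4, 3.27, 10.1, 11.1 and 2.0 FPKM against 0.156, 0.206 and 0.747, a difference of 3.15 (SE 0.44). The Wnt-potentiating receptors Lgr5 and Lgr6 had differences of 1.97 (SE 0.34) and 1.71 (SE 0.33). Lgr5 was 14.1, 3.30, 8.44, 8.79 and 2.57 FPKM against 0.635, 1.26 and 1.53. Shisa8, an AMPA receptor auxiliary protein, differed by 2.41 (SE 0.38), Sp7, a zinc finger factor known from bone, by 2.03 (SE 0.35), and the homeobox factor Meis1 by 1.42 (SE 0.29). Gng4, a G protein gamma subunit, and Gpsm1, a G protein signalling modulator, were the most abundant of these, at 95.6 and 75.9 FPKM in Ct 1 and at bulb-poor medians of 22.4 and 18.6. Gm12688 was listed at 0 in all 7 bulb-poor libraries and at 2.97, 0.619, 1.14, 1.0 and 0.155 FPKM in the bulb-rich libraries, so no fold is given for it.

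**Figure D2:**
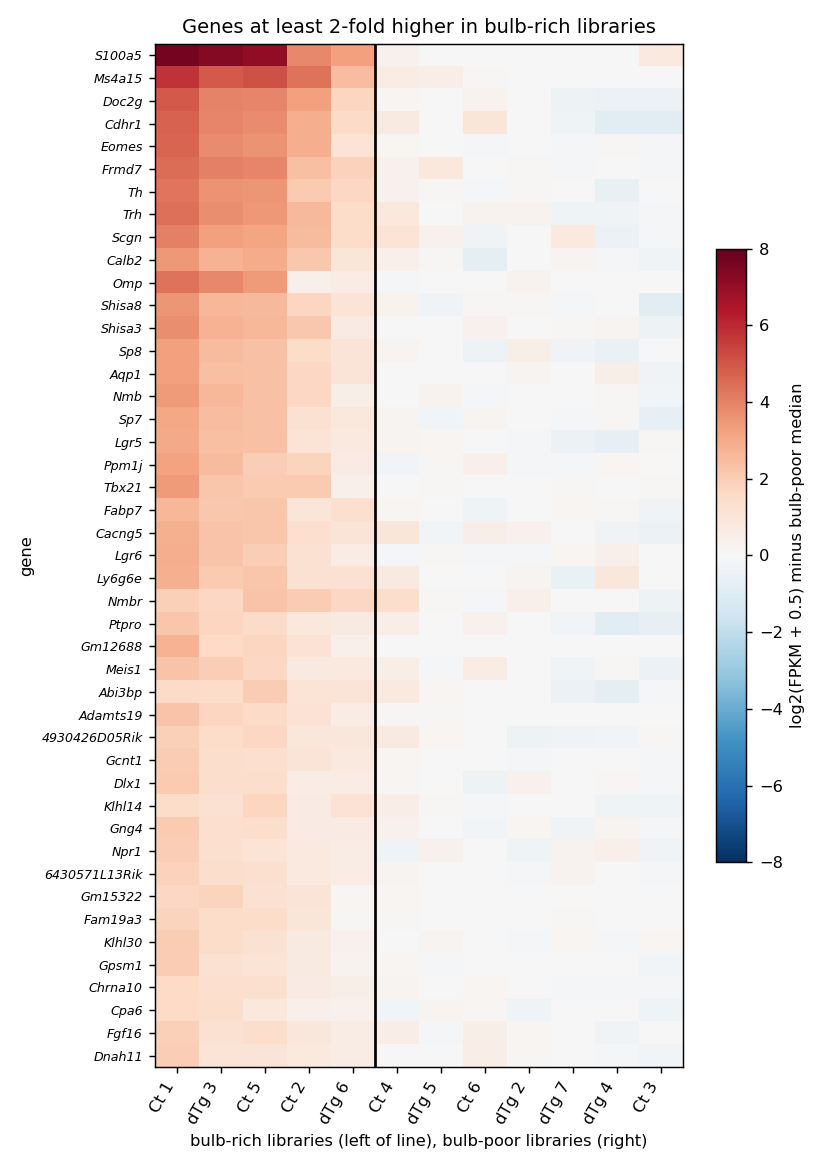
Heat map of the 45 genes (rows, by difference) in the 12 libraries (columns), coloured by log2(FPKM + 0.5) minus the gene's median in the bulb-poor libraries. Ct 1 is darkest and dTg 6 palest for most genes, and Omp is pale in both Ct 2 and dTg 6.

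The bulb-rich libraries differed among themselves in the level of these genes. Ct 1 was the highest library for 41 of the 45 genes, and dTg 6 was the lowest bulb-rich library for 38. The excess of each gene over its bulb-poor median was expressed as a percentage of its excess in Ct 1. Over the 45 genes the median was 58.8% in dTg 3, 50.9% in Ct 5, 24.8% in Ct 2 and 11.3% in dTg 6. For the 6 mitral and tufted genes it was 50.4%, 45%, 27.7% and 4.75% in the same order. For the 4 periglomerular genes it was 58.7%, 54.1%, 28.1% and 10.1%, and for the 3 granule genes 55.5%, 50%, 19.6% and 15.8%. The medians of the called genes thus had the order dTg 3, Ct 5, Ct 2, dTg 6 in each of these classes. Over all tested members, the mean log2 level kept this order for the periglomerular list only. For the granule list it was 4.17 in dTg 6 and 4.09 in Ct 2, both below the 4.20 of the bulb-poor library Ct 4. For the mitral and tufted list it was 3.70 in Ct 5 and 3.65 in dTg 3.

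The called sensory genes departed from the shares of these classes in Ct 2. S100a5 and Omp had 6.64% and 1.74% of their Ct 1 excess there, below the 22.7% to 34.4% of the mitral and tufted genes, and had 80.6% and 70% in dTg 3, above the 38.3% to 55.6% of those genes. The lowest Ct 2 shares of the periglomerular and granule genes were 17.1% and 16.1%. A high share in dTg 3 was not particular to the sensory genes. Gm15322, Cpa6 and Meis1, in none of these classes, had 114%, 85.6% and 76.5% there, while the median over the 45 genes was 58.8%. The sensory shares are values of 2 genes in single libraries and were not tested. A few genes did not scale with the others at all. Nmbr had 116% of its Ct 1 excess in Ct 2, 147% in Ct 5 and 80.6% in dTg 6. Abi3bp, an extracellular matrix protein, had 164% in Ct 5 and 57.7% in dTg 6, and Klhl14, a BTB-Kelch protein, had 132% and 67.8%. These were the 3 genes with more than 40% in dTg 6.

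**Figure D3:**
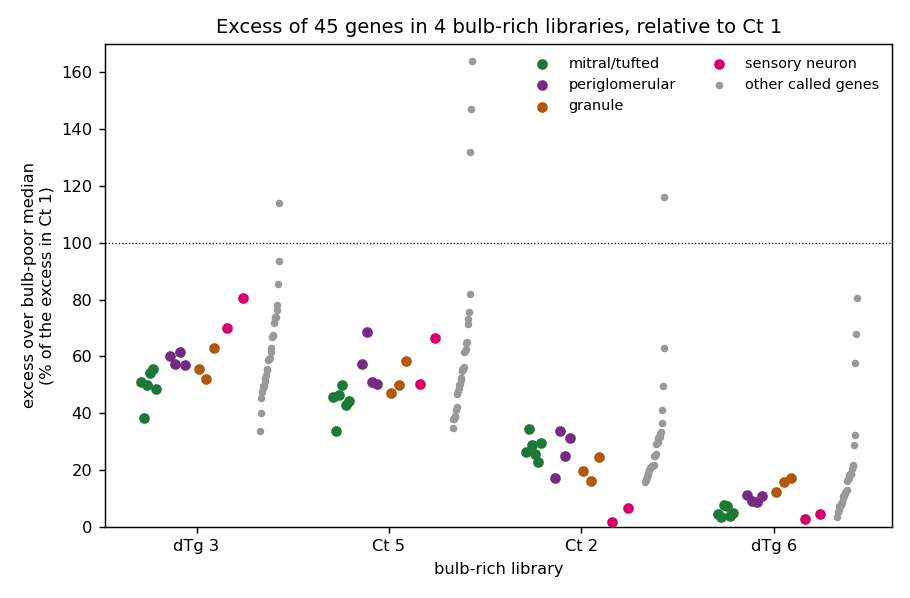
Excess of each of the 45 genes over its bulb-poor median, as a percentage of its excess in Ct 1 (dotted line, 100%), in the other 4 bulb-rich libraries, with colours for the cell class lists. The mitral and tufted genes have a median of 50.4% in dTg 3 and 4.75% in dTg 6, and the 2 sensory genes are at the bottom in Ct 2.

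Genes lower in the bulb-rich libraries had small differences. Of 12 excitatory cortical neuron genes all 12 were negative (median -0.20), and of 15 upper-layer genes 13 were negative (median -0.33), but none separated the libraries. Cux2, an upper-layer homeobox factor, was 22.3, 28.2, 16.2, 18.3 and 16.4 FPKM against 22.3, 30.3 and 35.8, a difference of -0.53 (SE 0.16). Camk2a, a kinase of forebrain excitatory neurons, was 602, 795, 692, 655 and 594 FPKM against 678, 864 and 1104, a difference of -0.35 (SE 0.12). Deep-layer genes were on the other side, 12 of 17 being positive with a median of 0.10, of which Nxph4 (1.02, SE 0.32) and Syt6 (0.77, SE 0.32) were the highest, both with overlap. Among the 15 named genes without overlap on the lower side, Fap, a serine protease, had the largest difference (-0.54, SE 0.17). Kcnq3, a subunit of the M-current potassium channel, was 15.9, 19.9, 16.6, 15.3 and 18.4 FPKM against 21.4, 22.3 and 25.9 (-0.40, SE 0.08). Kif1a, an axonal transport motor, was 174, 168, 163, 164 and 146 FPKM against 178, 210 and 219 (-0.30, SE 0.07). Only Gm43809, an unnamed gene with several values near 0, passed the 2-fold rule on this side (-2.18, SE 0.46).

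Most markers of other neighbouring regions did not follow the bulb split. Striatal genes had a median of -0.24 with 17 of 18 negative, but this combined -1.47 in Ct with 1.05 in dTg. Among the bulb-poor libraries their mean log2 level was 4.63 in Ct 4, 4.74 in Ct 6 and 3.94 in dTg 2, and 2.07 to 2.15 in the other 4. Among the bulb-rich it was 4.0 in dTg 6, 3.355 in dTg 3, 2.59 in Ct 5, 2.30 in Ct 2 and 2.20 in Ct 1. The dopamine receptor gene Drd1 was 1.98, 2.11, 3.38, 5.78 and 11.2 FPKM against 2.53, 3.32 and 20.6. The striatal level was also added as a covariate, an alternative chosen after the data were seen. This removes the mean difference of the striatal list by construction, so nothing is read from its median of -0.01. The mitral and tufted median was then 1.94, and 44 of the 45 genes still passed the 2-fold rule. Overlap was judged on FPKM without the covariate, so only the fold part of the rule could change. Whether striatal content contributes to these differences was not tested. Hippocampal genes (10 tested, median -0.01), cortical interneuron genes (13, -0.06), cerebellar genes (6, -0.24), mitochondrially encoded genes (13, -0.09) and immediate early genes (14, -0.11) had none called. In the hippocampal and cortical interneuron lists, 1 gene each was higher without overlap but below 2-fold, Mas1 (0.37, SE 0.14) and Adarb2 (0.41, SE 0.11). The 7 thalamic genes (median 0.08) and the 7 choroid plexus genes (median -0.05) had 1 called each, Calb2 and the water channel Aqp1. With Calb2 included, the mean log2 level of the thalamic list was 2.47 to 3.04 in the bulb-rich and 2.11 to 2.46 in the bulb-poor libraries. Aqp1 was 7.19, 2.0, 3.59, 3.67 and 1.11 FPKM against 0.142, 0.290 and 0.587, while Ttr, the most abundant choroid plexus gene, was 1.31, 2.22, 3.56, 1.05 and 120 FPKM against 0.407, 1.42 and 88.2. Ttr was thus high in dTg 6 and also in 3 bulb-poor libraries, at 86.7 in Ct 6, 60.7 in dTg 2 and 88.2 in dTg 4.

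Because the series title concerns cholinergic imbalance, cholinergic genes were described as well. None of 17 was called and the median was -0.16. Chrna3, a nicotinic receptor subunit, did not overlap, at 0.956, 0.562, 0.687, 0.605 and 0.275 FPKM against 0.0608, 0.111 and 0.205, a difference of 0.82 (SE 0.15). Chrm2, a muscarinic receptor, had a difference of 0.65 (SE 0.16) with overlap. Chrna10, another nicotinic subunit that was not in the list, was called, at 1.21, 0.403, 0.900, 0.908 and 0.279 FPKM against 0.0132, 0.0655 and 0.147.

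**Figure D4:**
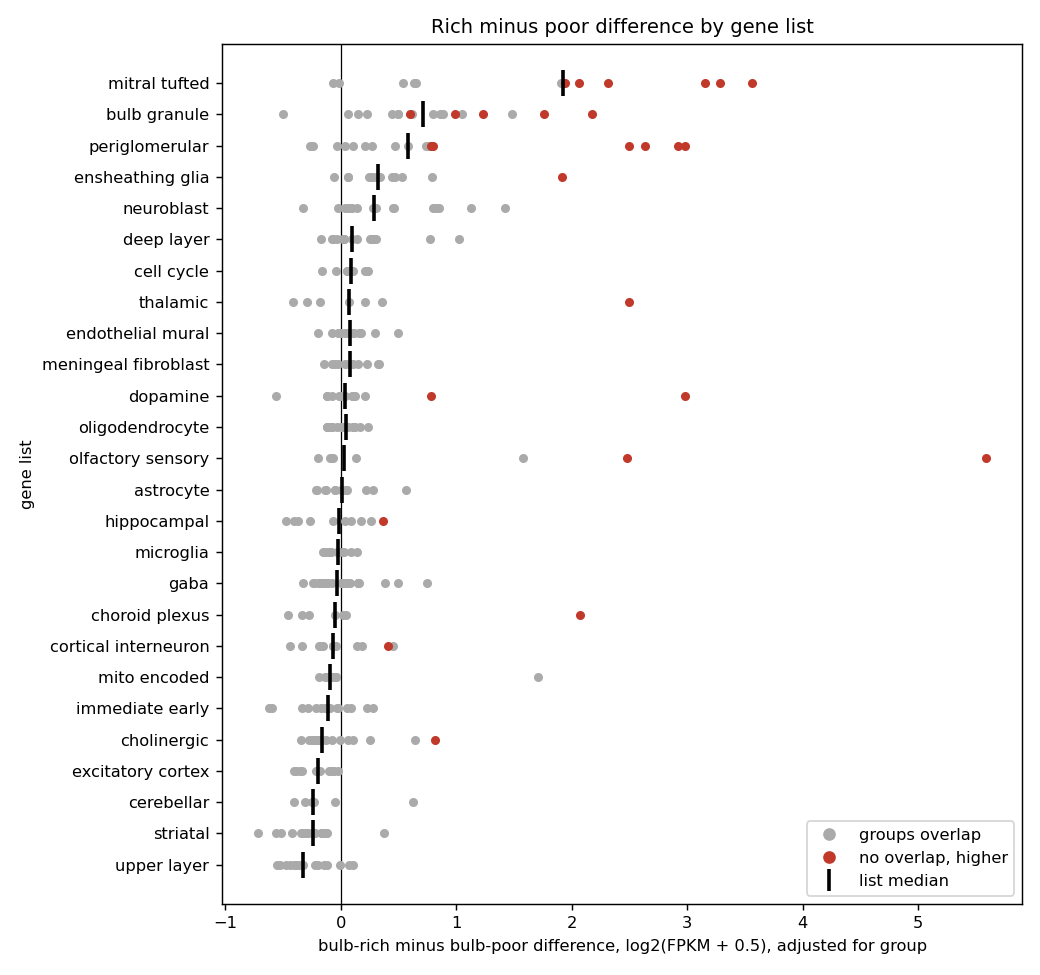
Bulb-rich minus bulb-poor difference on the log2(FPKM + 0.5) scale for the tested genes of each of the 26 lists, in red where the groups do not overlap, with a bar at the list median. The mitral and tufted median is 1.93 and the upper-layer median is -0.33.

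The split was spread over both transgene groups, with 3 of 6 Ct and 2 of 6 dTg libraries bulb-rich (Fisher's exact test, two-sided p = 1). The rule without overlap makes each of the 45 genes higher in the bulb-rich libraries within Ct and within dTg. As a description, their median differences were 1.89 in Ct and 1.51 in dTg. The interaction tested whether the difference itself differed between dTg and Ct. By limma with Benjamini-Hochberg adjustment, no gene of 18726 (0%) had an adjusted p under 0.05. The 917 genes at an unadjusted p under 0.05 were a smaller share than the 0.05 that chance alone gives. No p-value is given for the 45 genes, which were chosen on the same difference. Of the 2 bulb-rich dTg libraries, 1 was dTg 6, the lowest of all 5 for most of these genes.

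**Figure D5:**
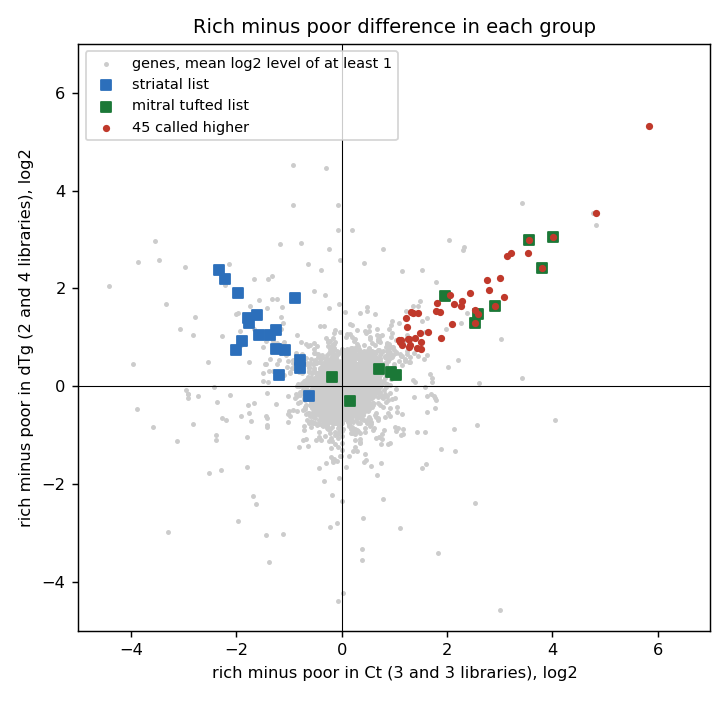
Bulb-rich minus bulb-poor difference on the log2(FPKM + 0.5) scale within Ct (horizontal axis) and within dTg (vertical axis), for genes whose mean log2 level was 1 or more (grey; 2 of 14747 lie outside the axes), the 45 called genes (red dots) and the mitral and tufted (green) and striatal (blue) lists. The rule that chose the 45 genes places them above 0 on both axes. The striatal list, with medians of -1.47 and 1.05, is negative in Ct and mostly positive in dTg.

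The comparison of dTg with Ct, which the split did not use, was fitted with and without the split as a term. Adjusted for the split, no gene of 18726 (0%) reached an adjusted p of 0.05 by limma. The 522 genes with an unadjusted p under 0.05 were a smaller share than the 0.05 that chance alone gives. The smallest adjusted p was 0.17. Without the split term the count was also 0. Eomes, one of the genes that chose the split, was 4.28 ± 5.81 FPKM in Ct and 1.45 ± 3.0 in dTg (SD, n = 6 each), and its fitted dTg minus Ct difference was -1.03 without and -0.50 with the split term. A shift of this kind follows from the unequal number of bulb-rich libraries in the groups, and no test is given for it. Among the named genes with the smallest p-values were Apobec3, a cytidine deaminase (0.83), Lbhd1 (0.68), Gimap5 (0.50) and Pip5kl1 (0.39), each with an adjusted p of 1 by limma.

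The files outside the comparison were on neither side by rule. In the 3 dTgDox libraries Eomes was 0.0518, 0.0641 and 0.172 FPKM, inside the bulb-poor range, as was Tbx21. Meis2 and Th were below every bulb-poor library in all 3, and Doc2g was so in dTgDox 1 and dTgDox 3. The library deposited as dTg 1 and NTg 1 had Eomes at 4.44 FPKM, Tbx21 at 0.0259 and Meis2 at 2.16, so its markers did not go together.

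Depth, estimated from the value of 1 read in single-exon genes, was about 22.3 to 24.8 M reads in the bulb-rich and 20.1 to 24.8 M in the bulb-poor libraries. Between 15762 and 16077 genes had at least 1 FPKM. Across genes, correlations of log2 values were 0.953 to 0.968 between libraries on the same side and 0.953 to 0.966 between opposite sides. By the number in the file header, 2 of 3 libraries in the 100s, 0 of 1 in the 400s and 3 of 8 in the 600s were bulb-rich. Within the 600s, an alternative chosen after the data were seen, 51 genes passed the 2-fold rule without overlap, 33 of them among the 45.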

How the data were processed

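Polyadenylated RNA of mouse frontal cortex was sequenced from 1 end, per the labels' protocols. Each deposited file holds 1 FPKM value per Ensembl gene for 46073 genes, as the authors normalized it; the unit was read from the values, since the headers give only a library name. The submitters' processing notes list TopHat2 and DESeq without versions; for genome build, annotation and quantifier, the entry is: not given in the sources used here. Symbols came from GENCODE M21 (GRCm38) for 45139 identifiers and were lacking for 934.

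Genes reaching 0.5 FPKM in 3 or more of the 12 libraries were analysed as log2(FPKM + 0.5) with limma 3.58.1 in R 4.3.3, with terms for group and split. P-values are two-sided and Benjamini-Hochberg adjusted over 18726 genes. On simulated data the dTg minus Ct fit recovered 89% of 2-fold and 98% of 4-fold changes. The changed genes were drawn only from those with a mean log2 level above 1, so recovery at lower levels was not examined. The simulated noise was independent between genes, so differences in tissue content that many genes share were not simulated. Depth was only estimated, so no counting intervals are given, and genes near 0 are the least precise. Named genes are the 5 markers, the 15 highest and 15 lowest differences without overlap (mean log2 level of at least 1, informative symbol), up to 5 members with the largest absolute difference per list, the 2 genes nearest the 2-fold rule on each side and the 5 smallest p-values per test; all others named, among them the further called genes and list members, were chosen after their values were seen. A few genes this rule selects are left out here. The libraries, markers and 26 lists were chosen with earlier results of these data known. Alternatives covered pseudocount, level filter, rescaling, the replicate block, the group term, each group alone, header number series, a striatal covariate and leaving out each library.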

Additional observations from a re-analysis of the deposited data

Results flagged for a closer look

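In 10 of 88 sets of libraries examined (gene or list by side of the split), 1 library lay farther from the others than Dixon's 95% limit allows, which chance gives in about 1 of 20. Among the bulb-poor libraries Meis2 was 31.7 FPKM in dTg 4, below the other 6. The mean log2 level of the mitral and tufted list was 1.38 in Ct 3, the lowest of the bulb-poor libraries. Upper-layer genes were highest among the bulb-rich libraries in Ct 2, at 4.01, and deep-layer genes were lowest there, at 3.42. Hippocampal genes stood at 2.54 in Ct 4 among the bulb-poor libraries, and thalamic genes at 3.04 in Ct 5 among the bulb-rich libraries. Choroid plexus genes were at 1.89 in dTg 6, and astrocyte genes at 5.55 in dTg 4. Mitochondrially encoded genes were at 12.55 in Ct 1 among the bulb-rich and at 11.75 in dTg 2 among the bulb-poor libraries. In dTg 2, mt-Co1 is listed at 0, while the other 11 libraries have at least 14603 FPKM; an exact 0 can be a failed estimate.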

How the results depend on the processing

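The count of 45 genes at least 2-fold higher without overlap was 61 and 33 with pseudocounts of 0.1 and 1, and 23 with a filter of 1 FPKM in 6 libraries. It was 97 in Ct alone and 75 in dTg alone, where fewer libraries have to be separated; 42 and 23 of these were among the 45. Leaving out 1 library gave 37 to 65. The count of 1 lower gene was 2 with a pseudocount of 0.1, 0 after median-of-ratios rescaling, which moved the median of all genes by 0.0131, 26 in Ct alone, 45 in dTg alone, 15 in the 600s alone and 1 to 3 with 1 library left out. The dTg minus Ct count of 0 was 1 with a pseudocount of 0.1, and 0 to 1 with 1 library left out (1 without dTg 6 or without dTg 7). The interaction count of 0 was 8 without a level filter and 0 to 2 with 1 library left out (2 without Ct 6, 1 without dTg 2 or without dTg 5). The cause was not tested. With the replicate number as a block, the counts were 39 higher, 1 lower, 1 for dTg minus Ct and 4 for the interaction; deviations of same-numbered samples correlated between -0.127 and 0.226 over 5 numbers, and the best match was the own number in 2 of 5, so the samples share only a number. Of 752 values for named genes, 750 moved by less than their spread; Eomes and Tbx21 moved to 4.70 and 3.37 with a pseudocount of 0.1. Depth limits genes near 0 FPKM.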
